A study of Mus musculus with 16 samples.

Results

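Oligodendrocyte precursor cells (OPCs) of the medial PFC were examined in single-nucleus RNA-Seq of 16 male mice at the age of 22 weeks. A nucleus was counted as an OPC when it held at least 3 unique molecular identifiers (UMIs, each standing for 1 captured transcript) summed over Pdgfra, Vcan, Cspg4, Neu4, Matn4, and Gpr17, with at least 2 of these 6 genes detected. It could hold at most 1 UMI of Slc17a7 and Gad2 together, the neuronal limit, and at most 1 UMI over Aqp4, Mag, Mog, Csf1r, P2ry12, Flt1, and Col1a2, the limit for other lineages. This rule found 1503 OPCs among 114512 nuclei, or 1.31%. Measured values of the nuclei themselves thus chose the OPCs, and the levels of the 15 genes of the rule are given only as a description.

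The mice formed 4 groups of 4: WT controls, alcohol-exposed WT mice, 3xTg-AD controls, and alcohol-exposed 3xTg-AD mice. The 3xTg-AD line carries mutant human APP and mutant human tau as transgenes driven by the Thy1 promoter, which is active in neurons, together with a knocked-in mutation of presenilin 1, and neither human transgene has a row in the counts. WT mice were of the B6;129 background. Alcohol was given as vapor in repeated cycles, with an injection of ethanol and of pyrazole, which slows the breakdown of alcohol; controls received pyrazole and breathed air, and tissue was taken in withdrawal.

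OPCs are the dividing glia of the adult brain from which oligodendrocytes, the myelin-forming cells, arise. They are held in the precursor state by platelet-derived growth factor acting on its receptor, encoded by Pdgfra, and carry the NG2 proteoglycan, encoded by Cspg4. Versican (Vcan) and matrilin 4 (Matn4) belong to the extracellular matrix, and Neu4 encodes a sialidase. When an OPC leaves the cycle and commits to differentiation it passes through a stage that expresses the receptor Gpr17, followed by Enpp6, Bcas1, and then the myelin genes. OPCs in the cortex also receive synapses from neurons and express glutamate receptors.

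Each mouse gave 57 to 133 OPCs and 68635 to 182774 UMIs in them. The median OPC held 1079 UMIs and 774 detected genes, against 2824 UMIs in neurons, 1306 in astrocytes, and 942 in oligodendrocytes, classes chosen by like counts of markers. The median UMIs per OPC ran from 879 to 1136.5 in WT controls, 812 to 1464 in alcohol-exposed WT mice, 946.5 to 1085 in 3xTg-AD controls, and 1044.5 to 1296 in alcohol-exposed 3xTg-AD mice. The 3 libraries that stood apart did so by Gm42418, a transcript that overlaps ribosomal RNA: WT control mice 26 and 27 and 3xTg-AD control mouse 12 had 17914 to 29047 CPM (counts scaled to a common total) over all nuclei, and the other 13 had 2059 to 4249. Of the OPCs, 51 carried a cell barcode that also occurred in another library, and 0 barcodes were an OPC in 2 libraries.

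Within the OPCs, Pdgfra was detected in 72.1%, Vcan in 71.1%, Matn4 in 55.1%, Cspg4 in 47.6%, Neu4 in 45.5%, and Gpr17 in 30.7%. A total of 361 OPCs had 2 of the 6 genes, 632 had 3, and 21 had all 6. The median OPC had 5 UMIs of these genes and the highest 19. The OPCs just inside the threshold, with exactly 3 UMIs, had 155 CPM of Olig2 and 164 CPM of Sox10. The 341 nuclei just outside it, with 2 UMIs over 2 genes and both limits met, had 139 CPM of Olig2 and 149 CPM of Sox10. Lhfpl3 was at 178 CPM inside and 108 outside, Sox6 at 351 and 255, C1ql1 at 143 and 131, and Olig1 at 150 and 167. At least 1 UMI of these 6 genes was found in 68.1% of the nuclei inside and 58.9% of those outside. Another 264 nuclei had enough marker UMIs but broke a limit, and their median depth was 1517.5 UMIs.

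Genes that the rule did not use matched the name of the class. Olig2, a transcription factor of the oligodendrocyte lineage, stood at 182 CPM in OPCs, 36.5 in oligodendrocytes, 12.9 in astrocytes, and 2.79 in neurons. Sox10, another lineage factor, stood at 201 CPM in OPCs and 116 in oligodendrocytes, against 4.89 in astrocytes. Sox6, which is expressed before differentiation, stood at 366 CPM in OPCs and 13.5 in oligodendrocytes. Lhfpl3 was at 212 CPM against 8.79 in oligodendrocytes, and C1ql1, a secreted protein of the complement C1q family, at 186 against 4.06. The myelin gene Mbp was at 158 CPM in OPCs and 3425 in oligodendrocytes. The first 5 of these genes were higher in OPCs than in the remaining nuclei of the same mouse in 16 of 16 mice.

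**Figure D1:**
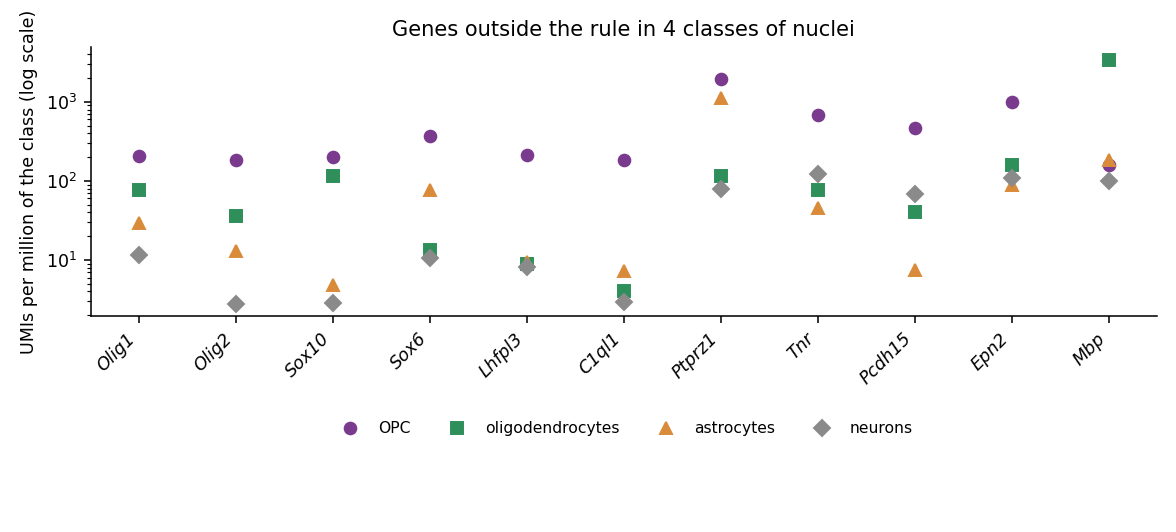
Levels of 11 genes outside the rule, as CPM of the class on a log scale, in OPCs (circles), oligodendrocytes (squares), astrocytes (triangles), and neurons (diamonds), each summed over all mice. OPCs sit highest for the lineage and precursor genes, such as Olig2 at 182 CPM, and below oligodendrocytes for Mbp.

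Among the genes with at least 50 CPM in OPCs, those with the largest folds over all other nuclei were named as a description, since the nuclei were chosen by part of them. After Neu4, at 167-fold, came the noncoding C430049B03Rik, with 228 CPM and 125-fold, and after the rule genes A930009A15Rik (107-fold), the potassium channel gene Kcnh8 (102-fold), and Rnf43, a ubiquitin ligase that dampens Wnt receptors (62.4-fold). Stk32a, a kinase, was 51.1-fold higher, Gjc3, a glial connexin, 49.5-fold, Emid1 46.2-fold, Calcrl, the receptor component for calcitonin-related peptides, 44.2-fold, and Mmp15, a membrane metalloprotease, 35.8-fold. Some of these were shared with oligodendrocytes and some were not: Gjc3 was at 964 CPM in OPCs and 816 in oligodendrocytes, whereas Stk32a was at 134 and 0.676, and Emid1 at 219 and 1.35. Erbb3, a neuregulin receptor, was at 71.8 CPM in OPCs and 77.1 in oligodendrocytes. Each of these genes was higher in OPCs than in the other nuclei in 16 of 16 mice.

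Markers of other cell types were also counted in OPCs. The summed level of 12 markers of glutamatergic neurons was 2739 CPM in OPCs and 4143 CPM in all other nuclei, and that of 12 markers of GABAergic neurons was 1085 and 988. Markers of astrocytes summed to 581 CPM in OPCs and 509 in the other nuclei, those of oligodendrocytes to 778 and 552, and those of microglia to 241 and 217, with each of the 12 genes of these lists detected. Endothelial markers were at 22.4 CPM, with Mecom and Cyyr1 at 0, and markers of leptomeningeal and mural cells at 40.4 CPM, with Lum and Bnc2 at 0. The microglial sum ran from 117 to 186 CPM in WT controls, 197 to 344 in alcohol-exposed WT mice, 153 to 287 in 3xTg-AD controls, and 230.4 to 354 in alcohol-exposed 3xTg-AD mice, so WT controls lay below both groups exposed to alcohol. Its part in the results on genes was not tested.

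The levels of the rule genes in the 4 groups, as CPM of the OPCs of a mouse without further scaling, are a description. Pdgfra was at 962 ± 177 CPM (SD, n = 4) in WT controls, 1222 ± 50.8 in alcohol-exposed WT mice, 969.9 ± 150.02 in 3xTg-AD controls, and 1215 ± 64.9 in alcohol-exposed 3xTg-AD mice. WT controls reached up to 1195 CPM and 3xTg-AD controls up to 1159.97, and the exposed groups began at 1154 and 1132, so the exposures overlapped in both genotypes. Cspg4 was at 529.9 ± 183 CPM in WT controls and between 599 and 609 in the means of the other groups. Gpr17 was at 299 ± 106 CPM in WT controls, 440.3 ± 71 in alcohol-exposed WT mice, 341 ± 137 in 3xTg-AD controls, and 289.7 ± 40.1 in alcohol-exposed 3xTg-AD mice.

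OPCs with and without Gpr17 were compared over genes of the committed stage. Of the 1503 OPCs, 111 had at least 2 UMIs of Gpr17, 351 had exactly 1, and 1041 had 0, with median depths of 1204, 1092, and 1057 UMIs. The 111 were compared with the 1041 as a description, without a test, because Gpr17 was also used to choose them. Enpp6, a choline phosphodiesterase of newly forming oligodendrocytes, was at 118 CPM in the Gpr17-positive OPCs, from 17 UMIs, and 3.29 CPM in the negative ones, from 4 UMIs. Bmp4, a secreted factor that is expressed in committed precursors, was at 159 and 17.3 CPM, and the noncoding 9630013A20Rik at 55.3 and 7.41. By mouse, Enpp6 was higher in the positive nuclei of 8 mice and lower in 1, Bmp4 higher in 10 and lower in 3, and 9630013A20Rik higher in 6 and lower in 4.

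Other genes of the committed list also varied across mice. Bcas1 was at 602 CPM in Gpr17-positive and 172 in Gpr17-negative OPCs, and Fyn, a kinase of early myelination, at 449.7 and 129, both higher in the positive nuclei of 12 of 16 mice. Sirt2, a tubulin deacetylase, was at 387 and 125 CPM, higher in 9 of 16 mice. Tns3 was higher in 11 mice, Itpr2 in 10, and Tcf7l2 in 9. Nfasc, an adhesion protein of the axon and its myelin, was at 221 and 110 CPM but higher in 8 mice and lower in 8, and Lims2 was at 104 and 37.9 CPM but higher in 7 and lower in 9. Mycl, Chn2, and Zfp488, each with 3 to 5 UMIs in the positive nuclei, were higher in 3, 5, and 3 mice and lower in 6, 7, and 8. Kif21a went the other way, at 89.9 and 132 CPM and lower in 12 mice. The identity genes went both ways. Sox6 was at 623 and 329.97 CPM and Tnr at 1072 and 639, each higher in the positive nuclei of 14 of 16 mice, whereas Sox10 was at 179.9 and 192 CPM, Olig2 at 131 and 182, Ptprz1 at 1729 and 2021, and Cspg5 at 1148 and 1583. Of the other marker genes of the rule, most were lower in the Gpr17-positive nuclei. Cspg4 was at 429 against 642 CPM, lower in 14 of 16 mice, and Pdgfra at 879 against 1173, lower in 13 of 16 mice. Matn4 was at 533 against 694 CPM, lower in 13 mice, and Vcan at 1024 against 1165, lower in 9. Neu4 was at 588 against 545 CPM, higher in 10 mice. A nucleus with 2 Gpr17 UMIs needed fewer UMIs of the other markers to meet the rule, which lowers the levels of these marker genes by construction.

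**Figure D2:**
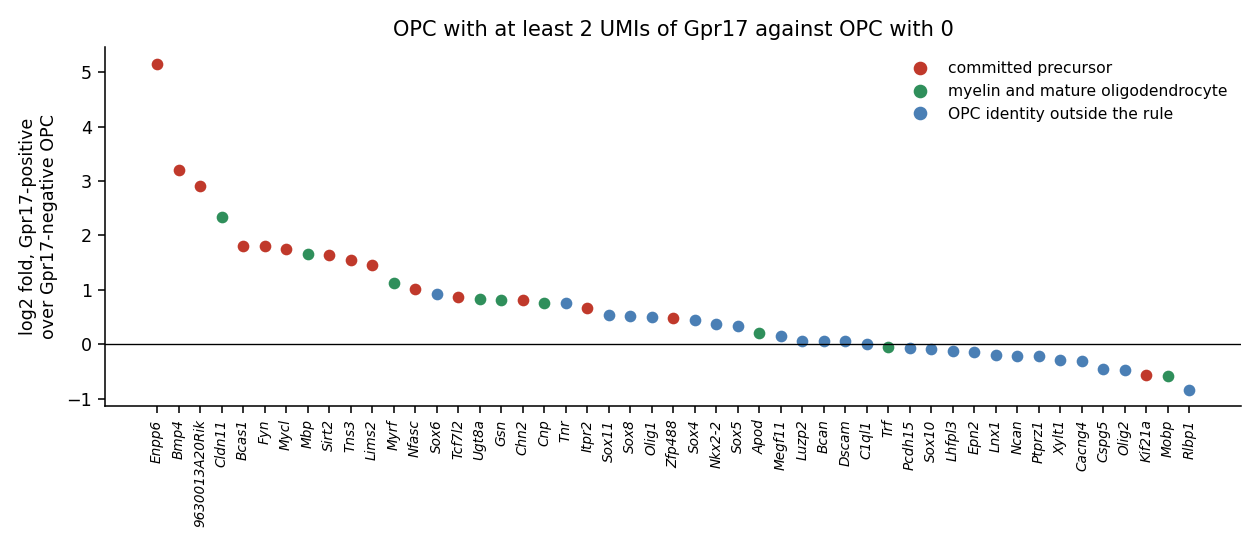
Log2 fold of OPCs with at least 2 UMIs of Gpr17 (111 nuclei) over OPCs with 0 (1041 nuclei), each point 1 gene of 3 lists, for genes with at least 3 UMIs in both sets. Enpp6 and Bmp4 of the committed precursor list are at the left, Kif21a of that list lies below 0, and identity genes lie on both sides of 0, with Sox6 and Tnr above it and Olig2 and Cspg5 below.

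Outside the lists, the genes with the largest folds toward Gpr17-positive OPCs included Epb41l2, a membrane skeleton protein, at 353 and 79.8 CPM, Frmd4a, a scaffold gene that is expressed in new oligodendrocytes, at 221 and 50.2, and Col27a1, a collagen gene, at 83.01 and 18.9. Epb41l2 was higher in the positive nuclei of 11 of 16 mice. In the other direction Celf3, an RNA-binding protein, was at 6.92 CPM, from 1 UMI, against 70.8.

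Transcripts of dividing cells were rare. Mki67, a nuclear protein of cycling cells, or Top2a, a DNA topoisomerase, was detected in 21 of 1503 OPCs, or 1.40% (95% exact interval 0.867 to 2.13). The share was 0.225% (0.0465 to 0.657) in oligodendrocytes and 0.242% (0.121 to 0.432) in astrocytes, whose median depths were 942 and 1306 UMIs, so the intervals lay below that of OPCs. In neurons, which do not divide and held 2824 UMIs at the median, it was 2.13%, above the share in OPCs, so no share of cycling OPCs is read from these counts. In 10 OPCs at least 5 UMIs of cell cycle genes were found. The intervals cover counting error only.

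The share of OPCs among nuclei addressed whether genotype or alcohol moved the size of the population, and a share also moves with the number of other nuclei captured. In WT controls it was 1.35%, 1.15%, 1.06%, and 1.19%, and in alcohol-exposed WT mice 1.18%, 1.15%, 1.63%, and 1.26%. In 3xTg-AD controls it was 1.21%, 1.23%, 1.20%, and 0.955%, and in alcohol-exposed 3xTg-AD mice 1.37%, 1.85%, 1.42%, and 1.897%. Every 3xTg-AD mouse exposed to alcohol lay above every WT control and every 3xTg-AD control, and the groups exposed to alcohol overlapped. Astrocytes were also a larger share of nuclei in each alcohol-exposed 3xTg-AD mouse than in any other mouse. In exposed 3xTg-AD mice they were 416, 435, 494, and 297 of 9077, 7198, 9096, and 4955 nuclei. In WT controls they were 239, 176, 172, and 234 of 6988, 4962, 6977, and 6464. The share of oligodendrocytes overlapped among all groups. Whether the OPC share moved apart from that of other glia was not tested. A second denominator took only nuclei with at most 1 UMI of Slc17a7 and Gad2 together. It held 2817 to 6344 nuclei per mouse, of 4955 to 9096, so shallow neurons could remain in it. There the separation of the OPC share from WT controls was not complete. The 3xTg-AD mice 4 and 33 exposed to alcohol had 2.08% and 2.03% and WT control mouse 36 had 2.13%. With that denominator the difference from WT controls was 0.769 points (exact permutation, adjusted p = 0.267).

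The mean share was 1.63% ± 0.279 (SD, n = 4) in alcohol-exposed 3xTg-AD mice and 1.19% ± 0.119 in WT controls, a difference of 0.446 percentage points (exact two-sided permutation test, p = 0.0286, adjusted p = 0.0667 over 7 comparisons). Against 3xTg-AD controls, at 1.15% ± 0.129, the difference was 0.484 points with the same exact p and the same adjusted p. A p of 0.0286 is the smallest that 4 mice against 4 allow. Over both genotypes, the 8 mice exposed to alcohol had 1.47% ± 0.292 and the 8 controls 1.17% ± 0.117, a difference of 0.302 points (exact permutation p = 0.0132, adjusted p = 0.0667). No comparison passed the adjustment: alcohol-exposed WT mice exceeded WT controls by 0.119 points (exact permutation p = 0.486), and 3xTg-AD mice differed from WT mice by 0.144 points (exact permutation p = 0.288). With both limits of the rule, neuronal and other lineages, set to 0 UMIs, the alcohol difference was 0.236 points and passed (exact permutation, adjusted p = 0.0185), and without WT mouse 6 or WT mouse 7 exposed to alcohol it was 0.343 or 0.347 points and passed. The depth of OPCs moved with the share, being highest in median in alcohol-exposed 3xTg-AD mice. With nuclei thinned to 800 UMIs and shallower nuclei left out, the difference of that group from WT controls was 0.522 points (exact permutation, adjusted p = 0.0742). That value is for a deeper part of the nuclei: in WT control mouse 28, 42 of 74 OPCs reached 800 UMIs.

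**Figure D3:**
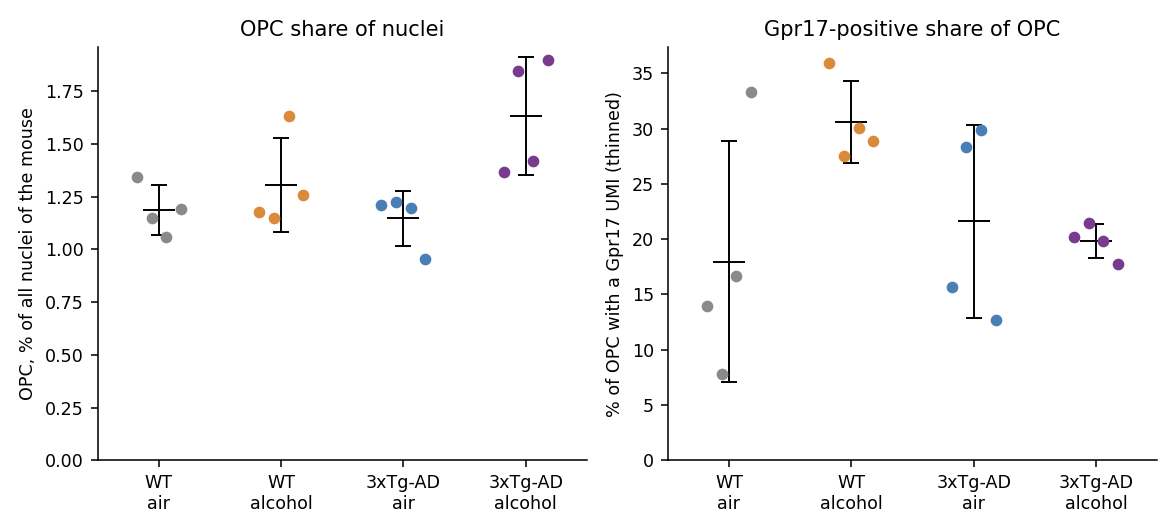
Share of OPCs among all nuclei of a mouse (left, percent) and share of OPCs with a Gpr17 UMI after thinning to 800 UMIs (right, percent), each point 1 mouse, with the mean and SD of 4 mice. The alcohol-exposed 3xTg-AD mice hold 1.37% to 1.897% OPCs of all nuclei, above all controls of both genotypes, which does not hold against WT controls among nuclei with at most 1 UMI of Slc17a7 and Gad2.

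The share of OPCs with a Gpr17 UMI, after each nucleus was thinned to 800 UMIs and shallower nuclei were left out, is given as a description with no test, because Gpr17 is a gene of the rule and a nucleus could be an OPC through it. It was 14%, 7.84%, 16.7%, and 33.3% in WT controls and 35.9%, 27.5%, 30.1%, and 28.9% in alcohol-exposed WT mice. In 3xTg-AD controls it was 15.6%, 28.3%, 29.9%, and 12.7%, and in alcohol-exposed 3xTg-AD mice 20.2%, 21.4%, 19.8%, and 17.8%. The control groups spread widely and the groups exposed to alcohol did not overlap. The mean of alcohol-exposed 3xTg-AD mice was 10.8 points below that of alcohol-exposed WT mice, and alcohol-exposed WT mice exceeded WT controls by 12.6 points. Without thinning the first of these differences was -9.96 points and the second 11.5 points. Without thinning and with at least 2 UMIs of Gpr17 required, they were -3.63 and 1.06 points. Without the libraries rich in Gm42418, among them WT control mice 26 and 27, the second was 5.59 points.

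A small set of genes differed between 3xTg-AD and WT mice in OPCs, led by Tmsb4x, Gpm6b, and Rpl29, which were higher in all 8 3xTg-AD mice than in all 8 WT mice. The transgenes and any other inherited difference between the 3xTg-AD line and the WT mice cannot be told apart in this design. Sums of UMIs per mouse over its OPCs were tested for 2850 genes that passed the filter on low counts, with edgeR's quasi-likelihood test and Benjamini-Hochberg adjustment over all 2850. Levels are CPM of the OPCs of a mouse after TMM scaling, and differences are log2 fold changes with their standard errors. Over both exposures, 8 3xTg-AD mice against 8 WT mice, 11 genes passed at an adjusted p of 0.05, which is 0.386% of those tested, 7 higher and 4 lower in 3xTg-AD mice. DESeq2 called 7, and 203 genes had an unadjusted p under 0.05. As a class OPCs held 1.26-fold the Tmsb4x level of all other nuclei, 1.27-fold the Gpm6b level, and 1.07-fold the Rpl29 level.

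Tmsb4x, which encodes the actin-binding thymosin beta 4, was at 1130.1, 1134, 1815, and 2117 CPM in WT controls and 1971, 2297, 1849, and 2237 in alcohol-exposed WT mice. It was at 2769, 4415, 4135, and 3948 CPM in 3xTg-AD controls and 4201, 2943, 4313, and 3246 in alcohol-exposed 3xTg-AD mice. All 8 3xTg-AD mice were above all 8 WT mice. The log2 fold change was 1.06 ± 0.12 (SE, edgeR adjusted p = 1.51e-13).

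Gpm6b encodes a membrane glycoprotein of neurons and glia. It was at 636, 605, 668, and 776 CPM in WT controls and 625, 684, 681, and 706 in alcohol-exposed WT mice, against 1443, 992, 1375, and 1068 in 3xTg-AD controls and 1144, 1543, 1178, and 1458 in alcohol-exposed 3xTg-AD mice. The WT mice stayed within a narrow band, and the 3xTg-AD mice lay above it in every case. The log2 fold change was 0.92 ± 0.13 (edgeR adjusted p = 1.67e-09).

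Both genes lie on the X chromosome and their promoters are shown because they moved together. In GRCm38, Gpm6b spans chrX:166238911-166388988 on the plus strand and Tmsb4x chrX:167207093-167209315 on the minus strand, with a gap of 818 kb and 0 other tested genes between them or within 2 Mb of either. The windows are the 250 bases before to the 50 bases after the RefSeq start (GRCm38.p6), Tmsb4x at chrX:167209169-167209468 and Gpm6b at chrX:166238693-166238992, each written 5′ to 3′ on the gene's strand. Capitals mark matches on either strand to 4 motifs: the SOX-type ACAAAG, the E-box CAGCTG, the TATA box TATAAA, and the GC box GGGCGG.
Tmsb4x: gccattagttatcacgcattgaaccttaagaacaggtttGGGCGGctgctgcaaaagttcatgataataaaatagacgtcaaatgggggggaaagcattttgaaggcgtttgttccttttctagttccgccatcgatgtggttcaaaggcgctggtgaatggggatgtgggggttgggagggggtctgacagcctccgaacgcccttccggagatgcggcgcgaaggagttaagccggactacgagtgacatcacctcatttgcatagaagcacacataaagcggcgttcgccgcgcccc
Gpm6b: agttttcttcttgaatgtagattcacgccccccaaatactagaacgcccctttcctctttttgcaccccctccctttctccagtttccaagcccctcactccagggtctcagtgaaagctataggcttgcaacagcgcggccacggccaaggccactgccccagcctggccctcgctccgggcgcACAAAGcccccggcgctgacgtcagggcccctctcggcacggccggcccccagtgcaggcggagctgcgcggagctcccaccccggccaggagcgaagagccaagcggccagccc
The Tmsb4x window holds 1 GC box, a motif present in 35.6% of 32817 such windows of the genome, and the Gpm6b window holds 1 SOX-type match, present in 18.7%. The E-box is in 16.3% of windows and the TATA box in 13.6%. The windows share none of the 4 motifs.

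Rpl29, a protein of the large ribosomal subunit (chr9:106429454-106431568), was at 20.2 to 75.6 CPM in WT controls and 0 to 60.8 in alcohol-exposed WT mice. It was at 103, 131, 99, and 119.99 CPM in 3xTg-AD controls and 169, 138, 238, and 190.5 in alcohol-exposed 3xTg-AD mice. The genotypes did not overlap, and the log2 fold change was 2.11 ± 0.29 (edgeR adjusted p = 1.67e-09). Genes of ribosomal proteins have near-identical copies in the genome, so how reads were assigned could affect this value, which rests on 0 to 7 UMIs in a WT mouse. Over both exposures Tmsb4x and Gpm6b passed in all 27 alternative settings of this comparison, and Rpl29 in the 25 in which it was tested, which leaves out limits of 0 and the rule on thinned nuclei.

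The other called genes rested on fewer UMIs or on less separated mice. Ifi27, an interferon-induced gene, was at 60.5 to 139 CPM in WT controls, 27.3 to 176 in alcohol-exposed WT mice, 103 to 329.96 in 3xTg-AD controls, and 148 to 356 in alcohol-exposed 3xTg-AD mice, with a log2 fold change of 1.23 ± 0.23 (edgeR adjusted p = 0.000896). The call was lost without 3xTg-AD mouse 31 exposed to alcohol and in 3 settings of the rule. Xbp1, a transcription factor of the unfolded protein response, was at 39.2 to 88.3 CPM in the WT mice and 58 to 184 in the 3xTg-AD mice (1.11 ± 0.26, edgeR adjusted p = 0.0109), and did not pass without 3xTg-AD mouse 4 or 31 exposed to alcohol, without the 3 libraries rich in Gm42418, with DESeq2, or with 2 marker UMIs. Itih5, a hyaluronan-binding matrix protein that was 9.31-fold higher in OPCs than in other nuclei, rose by 1.27 ± 0.33 (edgeR adjusted p = 0.0392), from 7.85 to 73.7 CPM in WT mice to 59.99 to 143 in 3xTg-AD mice. The Itih5 call was lost in 11 of 23 settings, with changes from 1.09 to 1.61, among them without WT control mouse 26 or 36, WT mouse 6 or 18 exposed to alcohol, 3xTg-AD control mouse 13 or 14, or 3xTg-AD mouse 4 or 31 exposed to alcohol, and with DESeq2, the covariate for ribosomal RNA, or omission of the libraries rich in Gm42418. Vip, a neuropeptide of interneurons, rose by 1.37 ± 0.31 (edgeR adjusted p = 0.00827) and did not pass without the 3 libraries rich in Gm42418 (edgeR adjusted p = 0.0534). Its level in OPCs, 78.5 CPM, was no higher than in all other nuclei, 86.6 CPM. Markers of GABAergic neurons in OPCs summed to 819 to 1166 CPM in WT controls, 1012 to 1159 in alcohol-exposed WT mice, 989.8 to 1023 in 3xTg-AD controls, and 964 to 1584 in alcohol-exposed 3xTg-AD mice. The part of that RNA in the result was not tested.

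The 4 lower genes fell in 3xTg-AD mice. Sirt2, a member of the committed precursor list, was at 151 to 282 CPM in WT controls, 95.7 to 204 in alcohol-exposed WT mice, 54.5 to 179.98 in 3xTg-AD controls, and 91.1 to 155 in alcohol-exposed 3xTg-AD mice, and it fell by 0.82 ± 0.20 (edgeR adjusted p = 0.0263). Ccl27a, a chemokine gene with near-identical copies, fell by 1.62 ± 0.39 (edgeR adjusted p = 0.0121), from 30.2 to 133 CPM in WT mice to 8.28 to 58.9 in 3xTg-AD mice. AY036118, a transcript associated with ribosomal RNA, fell by 0.48 ± 0.13 (edgeR adjusted p = 0.0476). Rnf121, a ubiquitin ligase of the endoplasmic reticulum, was at 218, 348, 189, and 948 CPM in WT controls, at 356, 684, 17, and 408 in alcohol-exposed WT mice, and at 12 to 44 in the 3xTg-AD mice, so WT mouse 17 exposed to alcohol was at the level of the 3xTg-AD mice. Its log2 fold change was -4.02 ± 0.77 (edgeR adjusted p = 0.0476). These 4 calls were fragile. Rnf121 was lost in 20 of 27 settings, with changes from -4.28 to -3.60, including the omission of any 1 mouse but WT control mice 26 and 28 and WT mouse 17 exposed to alcohol. AY036118 was lost in 18 of 27 (-0.62 to -0.29), including 9 omissions of 1 mouse: WT control mice 26 and 27, WT mice 7 and 18 exposed to alcohol, 3xTg-AD control mice 13, 14, and 21, and 3xTg-AD mice 31 and 34 exposed to alcohol. The 18 include the covariate for ribosomal RNA, of which AY036118 is itself a part. Sirt2 was lost in 12 of 27 (-1.02 to -0.70), including without WT control mouse 36, WT mouse 17 or 18 exposed to alcohol, 3xTg-AD control mouse 13, or 3xTg-AD mouse 31 or 34 exposed to alcohol. Ccl27a was lost in 4 of 24 (-1.90 to -1.46), without WT control mouse 28, WT mouse 17 or 18 exposed to alcohol, or 3xTg-AD mouse 31 exposed to alcohol. The number of genes called over both exposures was 17 without WT control mouse 28, 18 without 3xTg-AD control mouse 12, and 5 without 3xTg-AD mouse 31 exposed to alcohol, and 7 with DESeq2. The fold of OPCs over all other nuclei was 0.609 for Rnf121, 0.753 for Ccl27a, 1.20 for Xbp1, and 1.34 for AY036118. It was 2.88 for Sirt2 and 4.27 for Ifi27. The part of RNA from other cells in these calls was not tested.

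**Figure D4:**
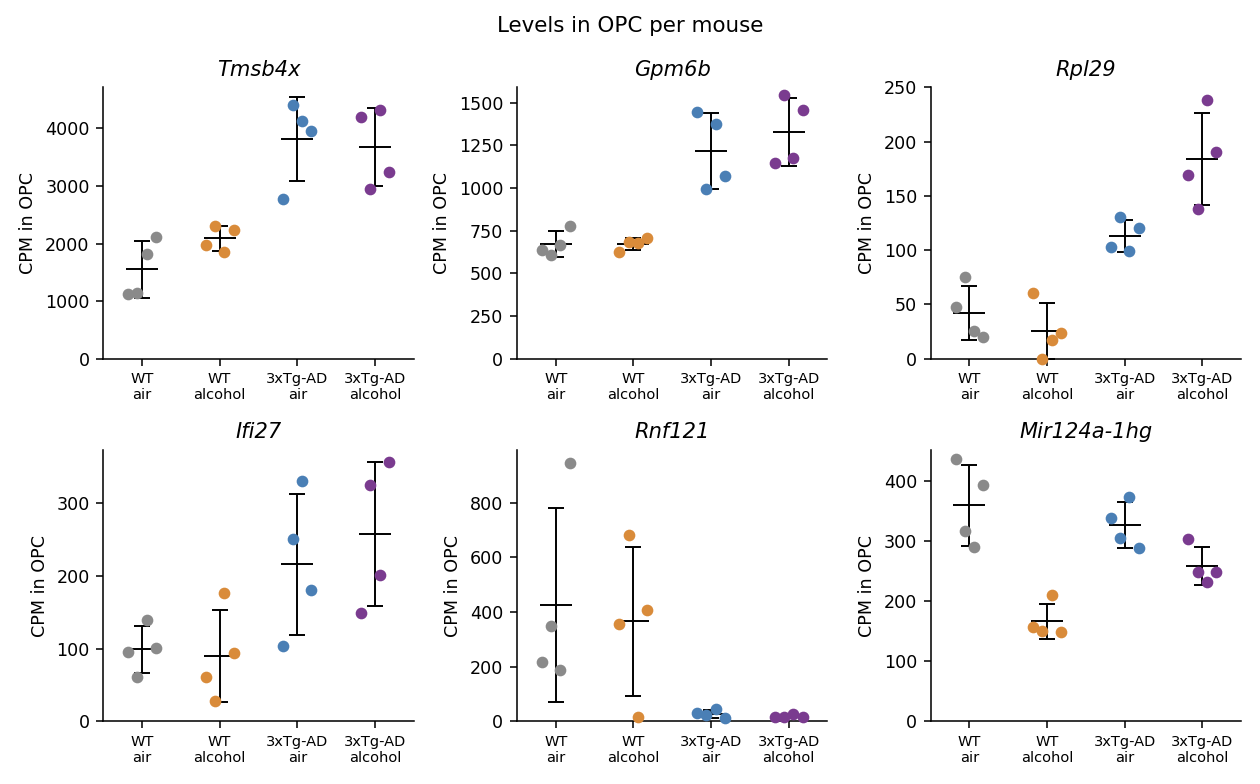
Levels in OPCs (TMM-scaled CPM) of 6 genes, each point 1 mouse, with the mean and SD of 4 mice per group. The 3xTg-AD mice of both exposures lie above all WT mice for Tmsb4x, Gpm6b, and Rpl29 and below all but 1 WT mouse for Rnf121, and alcohol-exposed WT mice are lowest for Mir124a-1hg.

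In alcohol-exposed 3xTg-AD mice against WT controls, the comparison that joins genotype and exposure, 10 genes or 0.351% of those tested passed, 6 higher and 4 lower. Tmsb4x rose by 1.24 ± 0.17 (edgeR adjusted p = 9.57e-09), Rpl29 by 2.16 ± 0.37 (1.84e-05), and Gpm6b by 0.98 ± 0.18 (4.72e-05), with the values per mouse given above. Csf2ra, the alpha chain of the receptor for the granulocyte-macrophage colony-stimulating factor, was at 57, 121, 101, and 101 CPM in WT controls and 212, 176, 238, and 215 in alcohol-exposed 3xTg-AD mice, with no overlap (1.18 ± 0.30, edgeR adjusted p = 0.0267). Cst3, the protease inhibitor cystatin C, was at 779, 726, 479, and 716 CPM and 1066, 859.7, 1461, and 1035 (0.70 ± 0.18, edgeR adjusted p = 0.0267). Ifi27 rose by 1.35 ± 0.32 (edgeR adjusted p = 0.0267). All 4 groups are given next as unscaled UMIs per mouse: WT controls, alcohol-exposed WT mice, 3xTg-AD controls, and alcohol-exposed 3xTg-AD mice. In that order Csf2ra had 6 to 10, 15 to 30, 11 to 16, and 26 to 38. Cst3 had 38 to 82, 70 to 157, 47 to 85, and 125 to 233. UMIs in all OPCs of a mouse were 68635 to 116025, 69687 to 182774, 71729 to 88015, and 125597 to 178480. Csf2ra had its fewest UMIs in WT controls.

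Serpini1, the neuronal protease inhibitor neuroserpin, fell from 161, 136, 177, and 181 CPM in WT controls to 63.6, 77.2, 50.1, and 82.8 (-1.27 ± 0.32, edgeR adjusted p = 0.0267). As a class OPCs held 116 CPM of Serpini1, and all other nuclei 154. Esco1, an acetyltransferase of cohesin, fell from 199, 257, 88.3, and 121 CPM to 70.6, 66.1, 50.1, and 58 (-1.40 ± 0.35, edgeR adjusted p = 0.0267). In unscaled UMIs and the group order above, Serpini1 had 9 to 18, 11 to 25, 8 to 11, and 8 to 14. Esco1 had 7 to 21, 5 to 9, 2 to 6, and 7 to 12, and was highest in WT control mice 26 and 27, both rich in Gm42418. Csf2ra, Cst3, Serpini1, and Esco1 passed in neither 3xTg-AD controls nor alcohol-exposed WT mice against WT controls. AY036118 fell by 0.78 ± 0.18 (edgeR adjusted p = 0.0133). With the share of transcripts associated with ribosomal RNA as a covariate this call was lost, and so were those of Csf2ra, Ifi27, Cst3, Serpini1, and Esco1. AY036118 is itself part of that share, so the loss of its own call was partly built in. Omission of single mice ended these calls too, of WT control mouse 26 for Csf2ra, Ifi27, AY036118, Serpini1, and Esco1, of WT control mouse 36 for Csf2ra, Cst3, and Serpini1, and of 3xTg-AD mouse 34 exposed to alcohol for all 6. The same held for WT control mouse 27 with Ifi27, Cst3, and Esco1, for WT control mouse 28 with Csf2ra, Cst3, and Serpini1, and, among exposed 3xTg-AD mice, for mouse 33 with Csf2ra, Cst3, Serpini1, and Esco1, mouse 31 with Ifi27, AY036118, and Esco1, and mouse 4 with Serpini1. Over the settings the change ran from 0.97 to 1.29 for Csf2ra, 0.84 to 1.54 for Ifi27, 0.43 to 0.88 for Cst3, -0.92 to -0.12 for AY036118, -1.44 to -1.07 for Serpini1, and -1.59 to -0.74 for Esco1. DESeq2 called 4 genes in all, 262 had an unadjusted p under 0.05, and the count was 6 after omission of 3xTg-AD mouse 33 and 3 after that of mouse 34, both exposed to alcohol.

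In 3xTg-AD controls against WT controls, 3 genes or 0.105% passed, all of them higher. Tmsb4x rose by 1.30 ± 0.18 (edgeR adjusted p = 1.63e-09) and Gpm6b by 0.85 ± 0.18 (edgeR adjusted p = 0.00635). Hap1, huntingtin-associated protein 1, was at 38, 90.7, 75.6, and 60.5 CPM in WT controls and 133, 174, 264, and 192 in 3xTg-AD controls (1.60 ± 0.36, edgeR adjusted p = 0.00859). In the groups exposed to alcohol Hap1 was at 79.4 to 123 CPM in WT mice and 91.1 to 121 in 3xTg-AD mice. As a class OPCs held 113 CPM of Hap1, and all other nuclei 117. The calls of Gpm6b and Hap1 were lost without WT control mouse 26 or 3xTg-AD control mouse 14, and that of Gpm6b also without 3xTg-AD control mouse 12. Both calls were also lost without the 3 libraries rich in Gm42418, that of Hap1 with DESeq2, no filter, or the covariate for ribosomal RNA, and that of Gpm6b with 4 marker UMIs, limits of 0, or thinning. Over the settings Gpm6b changed by 0.66 to 0.94 and Hap1 by 1.38 to 1.76. The number of calls was 1 without WT control mouse 26 or 3xTg-AD control mouse 14, 5 without WT control mouse 28 or 3xTg-AD control mouse 12, and 6 without WT control mouse 36.

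In 3xTg-AD mice against WT mice, both exposed, 14 genes or 0.491% passed, 10 higher and 4 lower. Rpl29 (2.74 ± 0.37, edgeR adjusted p = 1.36e-09), Gpm6b (0.98 ± 0.17, 3.12e-05), and Tmsb4x (0.82 ± 0.17, 0.00186) were among the higher ones, and of these Tmsb4x was lost with limits of 0 UMIs (edgeR adjusted p = 0.055). Ebf1, a transcription factor that was 22-fold higher in OPCs than in other nuclei, was at 43.4, 54.7, 28.4, and 7.85 CPM in alcohol-exposed WT mice and 56.5, 116, 150.4, and 124 in alcohol-exposed 3xTg-AD mice (1.84 ± 0.41, edgeR adjusted p = 0.00484), and WT controls spanned 30.2 to 181 CPM. Cfap20, a microtubule-associated protein, rose by 1.04 ± 0.23 (edgeR adjusted p = 0.00574) and Csnk2a2, a catalytic subunit of casein kinase 2, fell by 1.19 ± 0.30 (edgeR adjusted p = 0.029); on chromosome 8 these genes are 11.2 kb apart. Vip (1.75 ± 0.40), Xbp1 (1.32 ± 0.35), and Ifi27 (1.32 ± 0.30) were higher as well.

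Mfsd2a, the transporter of lysolipids with omega-3 fatty acids, was at 243, 123, 147, and 157 CPM in alcohol-exposed WT mice and 91.8, 55.1, 56.4, and 91.1 in alcohol-exposed 3xTg-AD mice (-1.22 ± 0.30, edgeR adjusted p = 0.014). It was 14.2-fold higher in OPCs than in other nuclei. Ccl27a fell by 2.28 ± 0.50 (edgeR adjusted p = 0.00451) and Tomm70a, a receptor of mitochondrial import, by 1.08 ± 0.29 (edgeR adjusted p = 0.0498). Omission of WT mouse 18 ended the calls of Ebf1, Cfap20, Ccl27a, Csnk2a2, Tomm70a, and Xbp1, and omission of 3xTg-AD mouse 31 those of Cfap20, Ccl27a, Mfsd2a, Csnk2a2, Tomm70a, Xbp1, and Ifi27. Omission of WT mouse 6 ended those of Mfsd2a, Vip, and Xbp1. Omission of 3xTg-AD mouse 33 ended those of Ebf1, Cfap20, Mfsd2a, and Tomm70a, of 3xTg-AD mouse 34 those of Csnk2a2, Tomm70a, and Ifi27, of 3xTg-AD mouse 4 and of WT mouse 7 those of Csnk2a2, Tomm70a, and Xbp1, and of WT mouse 17 those of Ccl27a, Csnk2a2, Tomm70a, and Xbp1. Over the settings the change ran from 1.51 to 2.06 for Ebf1, 0.88 to 1.23 for Cfap20, 1.45 to 2.08 for Vip, 0.999 to 1.52 for Xbp1, 1.09 to 1.94 for Ifi27, -2.57 to -2.02 for Ccl27a, -1.38 to -1.002 for Mfsd2a, -1.52 to -1.05 for Csnk2a2, and -1.49 to -0.87 for Tomm70a. Tomm70a kept its call in 2 of 19 settings. DESeq2 called 5 genes, and the count was 6 without WT mouse 18, 5 after omission of 3xTg-AD mouse 31, and 8 after that of mouse 33.

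The effect of alcohol in WT mice came to 1 call that most settings did not keep. In alcohol-exposed WT mice against WT controls 1 gene or 0.0351% passed. This was Mir124a-1hg, the host transcript of microRNA 124. It was at 437, 318, 289.97, and 393 CPM in WT controls and 156, 150.4, 209.9, and 149 in alcohol-exposed WT mice, and it fell by 1.09 ± 0.24 (edgeR adjusted p = 0.0214). It was at 268 CPM in OPCs and 1152 CPM in neurons, where this microRNA is known to act. In 3xTg-AD mice it was at 339, 305, 374, and 288 CPM in controls and 304, 248, 232, and 248 after alcohol. The neuronal gene Slc17a7 in OPCs was at 245 ± 50.3 CPM (SD) in WT controls and 193 ± 24.8 in alcohol-exposed WT mice. It was at 290 ± 49.2 in 3xTg-AD controls and 183 ± 32.5 in alcohol-exposed 3xTg-AD mice. The 12 summed markers of glutamatergic neurons ran from 2433 to 3267, 2511 to 2983, 2454 to 2878, and 2557 to 2740 CPM in the same order. The part of neuronal RNA in the Mir124a-1hg result was not tested. The call was kept in 8 of 19 settings, with changes from -1.26 to -0.33, and was lost with DESeq2, no filter, the covariate for ribosomal RNA, omission of the libraries rich in Gm42418, 2 or 4 marker UMIs, limits of 0, thinning, and removal of the top doublet scores. DESeq2 called 0 genes in WT mice, 257 had an unadjusted p under 0.05, and the edgeR count was 0 without WT control mouse 26 or WT mouse 18 exposed to alcohol and between 3 and 9 without any 1 of WT control mice 28 and 36 and WT mice 6, 7, and 17 exposed to alcohol.

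In alcohol-exposed 3xTg-AD mice against 3xTg-AD controls 0 genes, or 0%, passed with edgeR or DESeq2, and 189 had an unadjusted p under 0.05. The genes with the smallest p were Ogt, which adds N-acetylglucosamine to proteins (0.82 ± 0.22, edgeR adjusted p = 0.192), Cfap20 (0.95 ± 0.25, 0.192), and N4bp2l2 (1.05 ± 0.31, 0.39). Without 3xTg-AD control mouse 14 or 3xTg-AD mouse 4 exposed to alcohol the count was 2, and without 3xTg-AD control mouse 12 it was 1. The interaction, which asks whether alcohol acted differently in the genotypes, called 0 genes (0%) with edgeR and DESeq2, with 146 at an unadjusted p under 0.05. The smallest adjusted p was 0.591, shared by Uchl1 (-1.01 ± 0.29), Prnp (-1.03 ± 0.31), and Timp4 (-1.23 ± 0.37).

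Over both genotypes, the 8 mice exposed to alcohol differed from the 8 controls in 4 genes or 0.14%, 2 higher (0.0702%) and 2 lower (0.0702%). Apoe, the lipid carrier, was at 2156, 2072, 2786, and 2238 CPM in WT controls, 3317, 3131, 2983, and 3406 in alcohol-exposed WT mice, 1267, 2104, 1914, and 1176 in 3xTg-AD controls, and 2712, 1775, 3485, and 1814 in alcohol-exposed 3xTg-AD mice. The WT groups did not overlap, the 3xTg-AD groups did, and the log2 fold change was 0.53 ± 0.12 (edgeR adjusted p = 0.0176). Apoe was at 2474 CPM in OPCs, 7273 in astrocytes, and 807 in neurons. In astrocytes Apoe was at 6346 ± 557 CPM (SD) in WT controls and 8201 ± 1747 in alcohol-exposed WT mice. It was at 5543 ± 1545 in 3xTg-AD controls and 7740 ± 2916 in alcohol-exposed 3xTg-AD mice. In oligodendrocytes the means in the same order were 1559 ± 365, 1994 ± 491, 1320 ± 302, and 1821 ± 627 CPM. The comparison of alcohol with air was not tested in these classes or between them and OPCs. Summed astrocyte markers in OPCs were at 495 to 579.7 CPM in WT controls, 437 to 808 in alcohol-exposed WT mice, 454 to 597 in 3xTg-AD controls, and 573 to 706 in alcohol-exposed 3xTg-AD mice, and their part in the result was not tested. Between genotypes Apoe did not pass (-0.45 ± 0.12, edgeR adjusted p = 0.0521).

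Lhfpl3, a gene of OPC identity, was at 189.9, 197, 75.6, and 151 CPM in WT controls and 329.98, 205, 284, and 259 in alcohol-exposed WT mice, and at 221, 174, 109.99, and 72 CPM in 3xTg-AD controls and 233, 198, 276, and 232 in alcohol-exposed 3xTg-AD mice. The WT groups did not overlap, the 3xTg-AD groups overlapped through control mouse 12, and the log2 fold change was 0.78 ± 0.19 (edgeR adjusted p = 0.038). Mir124a-1hg fell by 0.72 ± 0.17 (edgeR adjusted p = 0.0176). Omission of 3xTg-AD mouse 33 exposed to alcohol ended the calls of Apoe, Lhfpl3, and Mir124a-1hg, and that of 3xTg-AD control mouse 21 those of Apoe and Lhfpl3. Lhfpl3 was also lost without WT control mouse 28, WT mouse 6 or 3xTg-AD mouse 34 exposed to alcohol, or 3xTg-AD control mouse 14, and Mir124a-1hg without WT mouse 18 exposed to alcohol. Apoe and Mir124a-1hg were also lost with the covariate for ribosomal RNA and without the 3 libraries rich in Gm42418, all of them controls, and all 3 genes with DESeq2 and the rule on thinned nuclei. In all, Apoe lost its call in 7 of 27 settings, Mir124a-1hg in 8, and Lhfpl3 in 11. Over the settings the change ran from 0.36 to 0.61 for Apoe, 0.58 to 1.18 for Lhfpl3, and -0.80 to -0.41 for Mir124a-1hg. The number of calls depended on single mice: it was 0 without 3xTg-AD mouse 33 exposed to alcohol and 8 to 11 without any 1 of WT control mice 26, 28, and 36, WT mice 6, 7, and 17 exposed to alcohol, 3xTg-AD control mice 12 and 14, and 3xTg-AD mice 4 and 31 exposed to alcohol. DESeq2 called 0 genes, and 279 had an unadjusted p under 0.05.

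Genes that define the precursor state and its exit were followed as lists, whose counts are read against 0.386% of all tested genes called between genotypes and 0.14% under alcohol. With 1 called member at most, no list is set apart by its count. Of 25 identity genes outside the rule, 23 were tested, and 0 passed between genotypes (median log2 fold change 0.09, against -0.01 over all genes tested). Under alcohol 1 rose, Lhfpl3, with a list median of 0.13 against 0.01. The most abundant, Ptprz1, a receptor phosphatase of the cell surface at 1968 CPM, changed by 0.01 ± 0.12 between genotypes and 0.08 ± 0.12 under alcohol (edgeR adjusted p = 0.988 and 0.885), and Cspg5, the proteoglycan neuroglycan C, by 0.22 ± 0.12 and 0.21 ± 0.12. Of 18 committed precursor genes 8 were tested, and 1 fell between genotypes, Sirt2, with a list median of -0.10; Itpr2, a calcium release channel of the endoplasmic reticulum, changed by -0.19 ± 0.17 and Bcas1 by 0.09 ± 0.18. Of 20 myelin genes 3 were tested and 0 passed in either comparison, with Mbp at -0.54 ± 0.23 between genotypes (edgeR adjusted p = 0.495). None of the 18 cell cycle genes in the table had enough UMIs to be tested.

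Signaling and synaptic genes of OPCs did not pass in either comparison. This held for 6 tested of 20 growth factor receptor and kinase genes, with a median of 0.04 between genotypes, among them Ntrk2, the receptor for brain-derived neurotrophic factor (0.07 ± 0.14), and Pik3r1 (0.02 ± 0.18). It held for 11 of 30 genes listed for the Notch, BMP, and Wnt pathways (median -0.09), among them the Notch target Hes5 (-0.09 ± 0.16) and Tcf4 (0.10 ± 0.12), an E-protein transcription factor rather than a Wnt effector. It also held for 18 of 33 glutamate and GABA receptor genes (median -0.07), where Gria2, the AMPA receptor subunit that limits calcium entry, was at 3374 CPM in OPCs and changed by 0.12 ± 0.12, and Gria3 by -0.11 ± 0.14. For 24 of 30 ion channel and transporter genes the median was -0.07, with the glutamate transporter Slc1a2 at -0.10 ± 0.13 and the noncoding Kcnq1ot1 at 0.18 ± 0.13.

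The matrix and adhesion lists had no called member either. Of 29 matrix genes 11 were tested (median 0.04 between genotypes), with Bcan, brevican, at -0.11 ± 0.13 and Tnr, tenascin R, at -0.25 ± 0.13. Of 41 adhesion and guidance genes 25 were tested (median -0.07), with Nrxn2 at 0.15 ± 0.13. Of 31 genes at Alzheimer loci and of APP and tau, 17 were tested; 0 passed between genotypes, with a median of -0.09 and App itself at -0.18 ± 0.14, and 1, Apoe, rose under alcohol. Of 28 genes of alcohol metabolism and stress, 10 were tested and 1, Xbp1, rose between genotypes (list median 0.11). Only 1 of 36 interferon and antigen presentation genes, Ifi27, had enough UMIs to be tested, so nothing can be read about that group as a whole. Of 14 transcripts of library quality, 1, AY036118, fell between genotypes (list median -0.13).

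Whether genotype acted differently in OPCs than in other glia of the same mice was tested as a difference of effects. Against oligodendrocytes 1 of 3205 genes, or 0.0312%, passed in each of 2 comparisons, and it was Cdh2, which encodes N-cadherin. In OPCs Cdh2 was at 152, 136, 75.6, and 171 CPM in WT controls, 165, 109, 125, and 126 in alcohol-exposed WT mice, 118, 142, 109.99, and 84 in 3xTg-AD controls, and 120.04, 60.6, 163, and 82.8 in alcohol-exposed 3xTg-AD mice, and the groups overlapped. In oligodendrocytes it was at 306, 254, 446, and 564 CPM in WT controls, 436, 119, 439, and 215 in alcohol-exposed WT mice, 51.1, 76.9, 33.3, and 19.3 in 3xTg-AD controls, and 74.6, 72.7, 75.3, and 55.6 in alcohol-exposed 3xTg-AD mice. In oligodendrocytes the genotypes thus did not overlap, but the lowest WT value, that of WT mouse 7 exposed to alcohol, rested on 2 UMIs in 14 nuclei.

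Over both exposures Cdh2 changed by -2.72 ± 0.26 in oligodendrocytes, and the effect in OPCs was higher than that by 2.35 ± 0.34 (edgeR adjusted p = 1.52e-08). In alcohol-exposed 3xTg-AD mice against WT controls the difference was 1.99 ± 0.41 (edgeR adjusted p = 0.0045), which did not pass without WT control mouse 36 or without 3xTg-AD mouse 4 or 33 exposed to alcohol. Astrocytes had 171 ± 50.2 CPM of Cdh2 in WT controls and 185 ± 44.3 in alcohol-exposed 3xTg-AD mice. In oligodendrocytes a 3xTg-AD mouse had 1 to 11 UMIs of this gene and a WT mouse 2 to 100, from 14 to 176 oligodendrocytes per mouse.

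**Figure D5:**
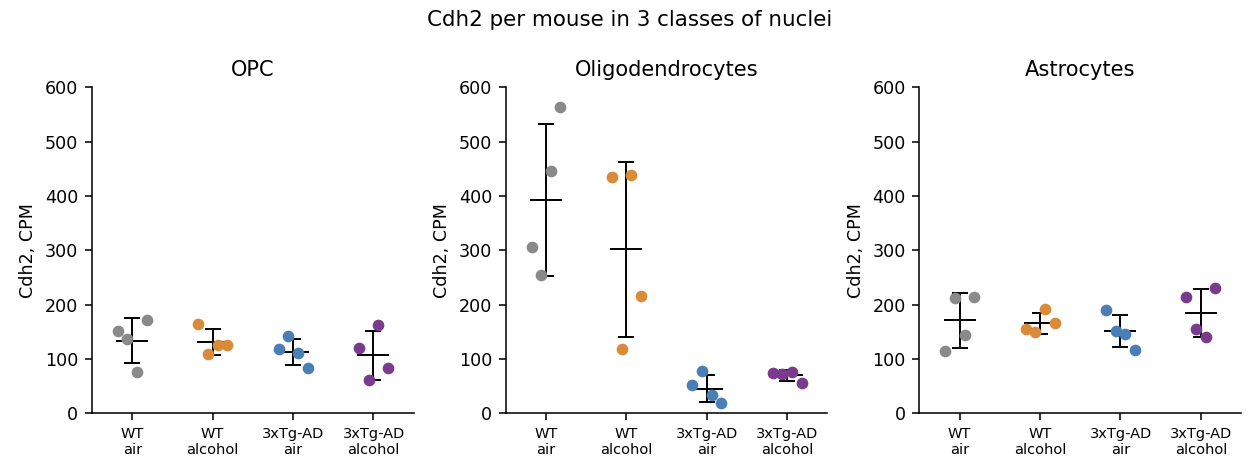
Cdh2 (TMM-scaled CPM of the class) in OPCs, oligodendrocytes, and astrocytes, each point 1 mouse, with the mean and SD of 4 mice per group. In oligodendrocytes all 8 3xTg-AD mice, at 19.3 to 76.9 CPM, lie below all 8 WT mice, and in OPCs and astrocytes the groups overlap. The lowest WT value in oligodendrocytes rests on 2 UMIs.

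Against astrocytes 0 of 6108 genes passed, or 0%, in either comparison, with 325 and 326 genes at an unadjusted p under 0.05 and smallest adjusted p of 0.414 and 0.067. The filter kept genes with enough UMIs in either class, and 2850 genes were tested in OPCs alone. Many of the 6108 thus had few UMIs in OPCs, where a difference could hardly show. DESeq2 was not run on these differences. Of the genes that were higher, Tmsb4x and Gpm6b passed between genotypes in both other glia and Rpl29 in oligodendrocytes. Tmsb4x changed by 1.18 ± 0.15 in oligodendrocytes and 1.02 ± 0.13 in astrocytes, and its effect in OPCs differed from these by -0.10 ± 0.13 and 0.02 ± 0.09. Gpm6b changed by 1.002 ± 0.15 and 1.05 ± 0.12, with differences of -0.09 ± 0.15 and -0.18 ± 0.10. Rpl29 changed by 2.36 ± 0.36 in oligodendrocytes, where it passed, and by 1.57 ± 0.39 in astrocytes (edgeR adjusted p = 0.12), with differences of -0.29 ± 0.50 and 0.52 ± 0.34. Of the 4 genes that were lower in OPCs, 3 passed in other glia. Rnf121 fell by 2.95 ± 0.55 in oligodendrocytes (edgeR adjusted p = 0.00384) and by 5.35 ± 0.73 in astrocytes (edgeR adjusted p = 0.00404). WT mouse 17 exposed to alcohol was again at the level of the 3xTg-AD mice, at 26.4 CPM in oligodendrocytes and 14.7 in astrocytes. Sirt2, a deacetylase, fell by 1.17 ± 0.24 in oligodendrocytes (edgeR adjusted p = 0.00105) and 0.66 ± 0.16 in astrocytes (edgeR adjusted p = 0.0321), and Ccl27a fell by 2.01 ± 0.18 in astrocytes (edgeR adjusted p = 1.56e-12). AY036118 passed in neither, at -0.49 ± 0.15 in oligodendrocytes (edgeR adjusted p = 0.168) and -0.43 ± 0.13 in astrocytes (edgeR adjusted p = 0.12). Of the other genes higher in OPCs, Ifi27, Xbp1, Itih5, and Vip did not pass in astrocytes (edgeR adjusted p = 0.144, 0.165, 0.802, and 0.43), nor Vip in oligodendrocytes (edgeR adjusted p = 0.669). In astrocytes Ifi27 changed by 1.16 ± 0.31, Xbp1 by 0.55 ± 0.18, Vip by 0.48 ± 0.22, and Itih5 by -0.30 ± 0.29. The effects in OPCs differed from these by 0.12 ± 0.26, 0.55 ± 0.30, 0.93 ± 0.34, and 1.60 ± 0.39, and none of these differences passed.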

How the data were processed

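Nuclei of the medial PFC of 16 mice were profiled with 10x Genomics 3′ libraries. The authors aligned reads to mm10 with Cell Ranger 6.1.1, which uses STAR, and deposited raw UMI counts of 19999 genes in 114512 nuclei. The limits of their filter on nuclei are not given in the sources used here. Groups came from the labels.

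OPCs were chosen by counts of markers, and the members and gene lists were chosen with earlier results of these data known. UMIs were summed per mouse, and edgeR 4.0.16 (R 4.3.3; TMM, filterByExpr, robust quasi-likelihood fit with a mean per group over all 16 mice) tested 2850 genes, with an adjusted p threshold of 0.05. The 15 rule genes stayed in the library sizes and out of the tests. Differences from oligodendrocytes and astrocytes were fitted on both sums of each mouse. OPC shares were compared with exact two-sided permutation tests (scipy 1.17.1), adjusted over 7 comparisons, and the Gpr17-positive share is given without a test. Each mouse is a replicate. Code was tested on simulated data.

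Named were the rule genes, up to 10 called genes with a canonical name in each direction by p for alcohol-exposed 3xTg-AD mice against WT controls and for genotype, up to 5 for other comparisons (the 3 smallest p where none passed), called members of lists, the 2 most abundant members of lists without one, and the genes of largest fold for OPCs and for Gpr17. Called genes with names of the form Gm and digits were counted and not named. Some genes that the rule would name are not reported here.

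Doublets were limited by the rule. Scrublet (scanpy 1.11.5) marked 382 nuclei (0.334%) at its own threshold, too few to be relied on, so leaving out the top 6% of its scores was an alternative. The others were RLE scaling, DESeq2 1.42.0, no filter, a covariate for transcripts associated with ribosomal RNA, rule genes kept in the tests, rules with 2 or 4 marker UMIs, with limits of 0, or on nuclei thinned to 800 UMIs, another denominator, and omission of the 3 libraries rich in Gm42418 or of each mouse. A Gpr17 share without thinning was added after seeing the data. Sequences were read from RefSeq and positions from GENCODE, both for GRCm38.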

Additional observations from a re-analysis of the deposited data

Results flagged for a closer look

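Mir124a-1hg in the OPCs of alcohol-exposed WT mice was at 209.9 CPM in mouse 17 and at 149 to 156 CPM in the other 3 mice, a gap of 0.882 of the range of the group. The OPC share of 3xTg-AD control mouse 21 was 0.955%, and that of the other 3 mice of its group 1.20% to 1.23%, a gap of 0.895 of the range. Chance sets apart a sample in this way in about 1 of 20 groups, and 2 of the 104 groups examined were so.

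The effect on Cdh2 in OPCs differed from that in oligodendrocytes by 1.99 on the log2 scale in alcohol-exposed 3xTg-AD mice against WT controls and by 2.35 between genotypes over both exposures, both by the test of the difference itself.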

How the results depend on the processing

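No paired analysis was possible because the groups share no replicate numbers: each number names 1 mouse. Of 41 results for single genes, 10 kept their call in every alternative in which they were tested and 0 reversed. Of these 10, 3 concern Rpl29, which was not tested with limits of 0 or on thinned nuclei. Comparisons are given in the order alcohol-exposed 3xTg-AD mice against WT controls (A), 3xTg-AD controls against WT controls (B), alcohol-exposed WT mice against WT controls (C), alcohol-exposed 3xTg-AD mice against 3xTg-AD controls (D) and against alcohol-exposed WT mice (E), genotype (F), and alcohol (G).

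The main counts were 10, 3, 1, 0, 14, 11, and 4. DESeq2 called 4 genes in A, 0 in C, 5 in E, 7 in F, and 0 in G. Without a filter D had 3, E had 22, and the difference from oligodendrocytes in A had 0. With the ribosomal RNA covariate A had 5, C had 0, and D had 3, and without the 3 libraries rich in Gm42418 D had 1. With 2 marker UMIs B had 7 and G had 22, and the differences had 2 (oligodendrocytes, A), 1 (astrocytes, A), and 2 (astrocytes, F). With 4 marker UMIs A had 5, B had 1, E had 3, and F had 3. With limits of 0 UMIs A had 4, B had 1, C had 0, E had 2, F had 3, G had 2, and the differences in A had 0 (oligodendrocytes) and 1 (astrocytes). With the rule on thinned nuclei A had 3, B had 1, C had 0, E had 2, F had 3, and G had 0. Without the top doublet scores A had 4, C had 0, and the differences in F had 2 (oligodendrocytes) and 5 (astrocytes). The cause of these moves was not tested. Omission of 1 mouse gave 3 to 13 in A, 1 to 6 in B, 0 to 9 in C, 0 to 2 in D, 5 to 13 in E, 5 to 18 in F, 0 to 11 in G, and 0 to 0 for the interaction. The differences from oligodendrocytes had 0 to 2 in A and 1 to 1 in F, and those from astrocytes 0 to 0 and 0 to 2.

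For the OPC share, in points, B was 0.114 with 2 marker UMIs, 0.000714 with limits of 0, 0.174 on thinned nuclei, and 0.0012 without the 3 libraries, against -0.0384, and G was 0.236 with limits of 0, where it passed. F, 0.144, was 0.243 with 2 marker UMIs, 0.263 on thinned nuclei, and 0.222 with the smaller denominator, which made all 7 differences larger in size. Omission of 1 mouse gave 0.358 to 0.535 in A, -0.0804 to 0.026 in B, 0.00969 to 0.172 in C, 0.396 to 0.573 in D, 0.239 to 0.436 in E, 0.0718 to 0.206 in F, and 0.2404 to 0.347 in G. For the Gpr17-positive share, A was -2.56 and B -2.23 unthinned with 2 UMIs, 1.59 and 1.72 unthinned with 1 UMI, and -5.19 and -1.37 without the 3 libraries, against 1.86 and 3.68. Omission of 1 mouse gave -1.51 to 6.99 in A, 0.309 to 8.81 in B, 9.27 to 17.8 in C, -4.79 to 0.923 in D, -11.8 to -9.01 in E, -5.90 to -1.89 in F, and 3.70 to 7.35 in G. With 57 to 133 OPCs per mouse, 2850 of 19999 genes had enough UMIs to be tested, and genes below that limit were not examined.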
